A study of Yarrowia lipolytica with 35 samples.

Results

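Yarrowia lipolytica is a lipid-storing yeast that grows on sugars, glycerol and hydrophobic substrates such as alkanes, and that can release citrate and polyols such as erythritol and mannitol. RNA sequencing of bioreactor cultures gave 35 libraries in 12 groups, and the comparison described here uses 6 of them, chosen by their labels. These are 3 libraries of strain DSM-3286 growing on glycerol as the only carbon source, sampled 8 h after inoculation at pH 5.5, and 3 of the same strain growing on glucose, sampled after 12 h at the same pH. The submitters describe the replicates as biological triplicates. The hour of sampling goes with the carbon source, so carbon source and hour cannot be told apart. Further groups are used only to show where the comparison differs. They are DSM-21175 growing at pH 5.5 on glycerol (8 h) and on glucose (12 h), with 3 libraries each, and DSM-3286 at 32 h, in a stationary phase limited by nitrogen, at pH 5.5, with 3 libraries on glycerol and 2 on glucose. No genetic change is named for either strain.

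Glycerol enters central metabolism through a kinase, encoded by GUT1, and a mitochondrial glycerol-3-phosphate dehydrogenase, encoded by GUT2, and joins glycolysis at the triose phosphates. Glucose enters through hexose transporters and hexose kinases at the top of glycolysis. Fatty acids are broken down in peroxisomes by beta-oxidation, whose first step is made by acyl-CoA oxidases encoded by the POX genes, and alkanes are first hydroxylated by cytochromes P450 encoded by the ALK genes. Yarrowia lipolytica is known for large families of both. Symbols used below are of 2 kinds. A set of 71, mostly transcription factors, comes from the deposited table of log2 values. The other symbols are published names that were paired with locus tags without a source at hand, and the files could check only 5 of them. These make up 16 lists of 122 genes, all of which passed the filter on low counts, which uses all 12 groups. The lists were chosen with earlier results of these data known, so their counts are no independent evidence of a direction. Of the 5 checked, 4 carried the same symbol and the tag listed as YAS3 carries the symbol OPI1.

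The 3 glycerol libraries held 9.21 to 24.26 megareads of counted reads and the 3 glucose libraries 11.91 to 13.22 megareads. Between replicates of a carbon source the Pearson r across genes was 0.99185 to 0.99435 for log2 CPM (CPM, the counts of a gene scaled to the adjusted library total), and 57 to 99 genes lay at least 2-fold from both replicates in a library. No library of the 6 stood apart by that measure. In growing DSM-21175 glucose replicate 3 stood apart, with 350 such genes, and glycerol replicate 2 had 211, and the main values of the strain comparison are also given without each of them. RNAs with noncoding locus tags, among them tRNA and rRNA genes, took 0.0935 ± 0.00657% of reads on glycerol and 0.0471 ± 0.00381% on glucose (SD, n = 3 each). The part of this difference in the results was not tested.

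Growing DSM-3286 differed between the carbon sources in a large share of its expressed genes, mostly by less than 2-fold. Of 6537 genes tested, 3618 (55.3%) were called, which means an adjusted p under 0.05 in the quasi-likelihood test of edgeR, with p-values adjusted over all genes by the Benjamini-Hochberg method. On glycerol 1916 genes (29.3%) were higher and 1702 (26%) were lower, with a median log2 fold change of 0.005 over all genes. Large changes were mostly downward on glycerol. At least 2-fold differences were called for 448 higher genes (6.85%) and 699 lower genes (10.7%), at least 8-fold ones for 34 and 165, and at least 64-fold ones for 5 and 21. The first principal component of the 6 libraries held 87.2% of their variance. The split between higher and lower depends on scaling: higher genes were 53.0% of the calls as tested here, 46.3% with another scaling of edgeR (relative log expression) and 43.6% without the filter on low counts.

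**Figure D1:**
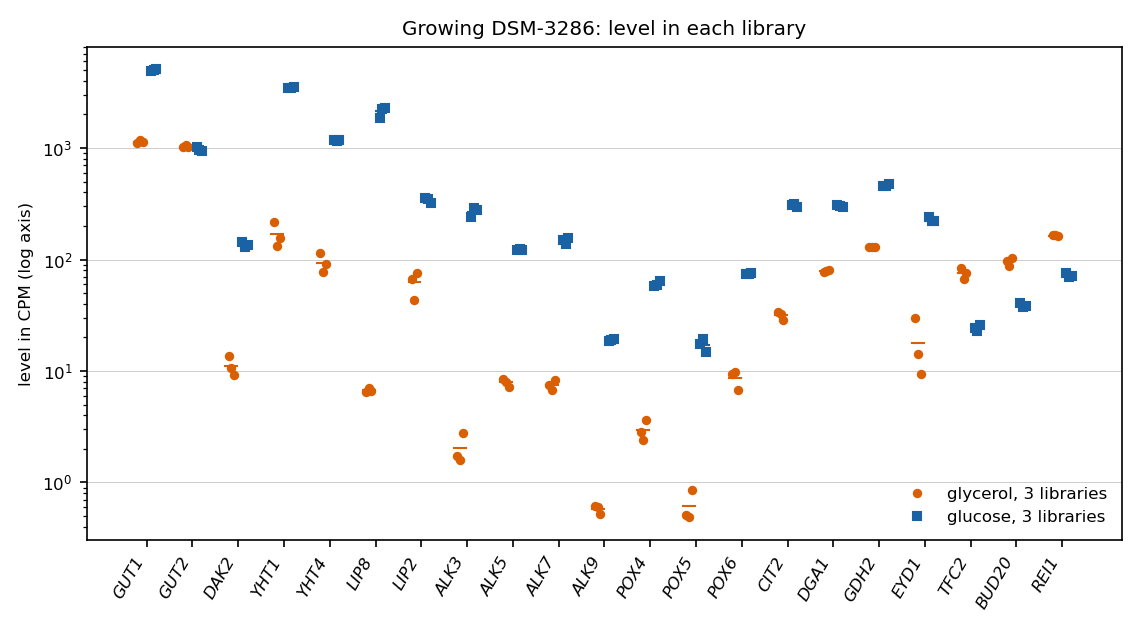
Level of 21 genes in each of the 6 libraries of growing DSM-3286, in CPM on a log axis; each point is 1 library (circles glycerol, squares glucose) and each short line the mean of 3. GUT2 overlaps between the carbon sources, TFC2, BUD20 and REI1 are higher on glycerol, and the other 17 genes are higher on glucose, LIP8 by the most.

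The gene for the first enzyme of glycerol use was lower on glycerol than on glucose. GUT1 (YALI0F00484g), glycerol kinase, stood at 1105, 1175 and 1140 CPM on glycerol and at 4875, 5064 and 5075 CPM on glucose. Every glucose library lay far above every glycerol library, and the log2 fold change was -2.13 ± 0.16 (SE; adjusted p = 5.69e-12, edgeR with Benjamini-Hochberg). Per kilobase of gene, GUT1 ranked 84th among coding genes on glucose and 299th on glycerol. GUT2 (YALI0B13970g), the next enzyme, stood at 1012, 1056 and 1019 CPM on glycerol and 1018, 965 and 941 CPM on glucose. Its groups overlapped, and the log2 fold change of 0.08 ± 0.16 did not pass (adjusted p = 0.701, edgeR with Benjamini-Hochberg).

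The other 3 genes of glycerol and dihydroxyacetone metabolism all changed. DAK2 (YALI0E20691g), a dihydroxyacetone kinase, was at 13.6, 10.6 and 9.19 CPM on glycerol and at 145, 130 and 135 CPM on glucose, with no overlap and a log2 fold change of -3.63 ± 0.54 (adjusted p = 3.46e-06, edgeR with Benjamini-Hochberg). DAK1 (YALI0F09273g), the more abundant kinase of the pair per kilobase on both carbon sources, fell by 0.69 on the log2 scale. GPD1 (YALI0B02948g), a glycerol-3-phosphate dehydrogenase that makes glycerol 3-phosphate from dihydroxyacetone phosphate, rose by 0.47 ± 0.10, with 562 to 622 CPM on glycerol and 414 to 450 CPM on glucose. In sum, 1 of the 5 genes rose, 3 fell (26% of all genes tested did) and 1 did not pass, with a median log2 fold change of -0.69. Together the 5 genes took 0.366 to 0.371% of reads on glycerol and 0.796 to 0.811% on glucose.

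Hexose transporter genes were lower on glycerol. YHT1 (YALI0C06424g) stood at 217, 132 and 156 CPM on glycerol and at 3481, 3471 and 3552 CPM on glucose. The groups were far apart, with a log2 fold change of -4.38 ± 0.56 (adjusted p = 2.95e-07, edgeR with Benjamini-Hochberg), and YHT1 ranked 122nd among coding genes per kilobase on glucose and 1787th on glycerol. YHT4 (YALI0E23287g) stood at 114, 77.3 and 90.7 CPM on glycerol and 1179, 1150 and 1173 CPM on glucose, a log2 fold change of -3.64 ± 0.21 (adjusted p = 8.64e-14, edgeR with Benjamini-Hochberg). The other transporters of the list were close to the floor on both carbon sources. YHT2 (YALI0C08943g) had 2 reads in 1 glucose library and none in the other 5, and YHT3 (YALI0F19184g) reached at most 1.23 CPM, with a log2 fold change of -1.01 ± 0.51 that did not pass. The list therefore gave 2 lower genes of 4, against 26% of all genes, and its share of reads was 0.021 to 0.0331% on glycerol and 0.462 to 0.473% on glucose.

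Changes in glycolysis and gluconeogenesis were small and mostly downward on glycerol: of 13 genes 8 were lower (26% of all genes), 2 were higher (29.3% of all genes) and 3 did not pass, with a median log2 fold change of -0.33. None of the 13 reached 2-fold. The largest changes were in PCK1 (YALI0C16995g), phosphoenolpyruvate carboxykinase of gluconeogenesis, PFK1 (YALI0D16357g), phosphofructokinase, and HXK1 (YALI0B22308g), hexokinase. PCK1 was at 155, 162 and 165 CPM on glycerol and 301, 297 and 303 CPM on glucose (log2 fold change -0.90 ± 0.20). PFK1 was at 308, 337 and 320 CPM against 560, 603 and 599 CPM (-0.87 ± 0.13), and HXK1 at 74.3, 81.3 and 75.5 CPM against 142, 131 and 130 CPM (-0.80 ± 0.14). All 3 were lower in every glycerol library than in any glucose library, and the groups did not overlap in 11 of the 13 genes. How often groups did not overlap was counted for the lists and not over all genes. TDH1 (YALI0C06369g), glyceraldehyde-3-phosphate dehydrogenase, was the most abundant of the list per kilobase and ranked 6th among coding genes on glucose and 70th on glycerol (log2 fold change -0.67 ± 0.09). The glucokinase gene GLK1 (YALI0E15488g) was higher by 0.23 ± 0.10 and the phosphoglycerate mutase gene GPM1 (YALI0B02728g) by 0.31 ± 0.11. Neither of these 2 calls held with relative log expression scaling, without the filter, with DESeq2 or with limma on the deposited log2 values. The call of GLK1 was also lost without glycerol replicate 1 or 3 or any single glucose library. That of GPM1 was lost without glycerol replicate 2 or glucose replicate 1. Without glucose replicate 2 the lower calls of the list were 5.

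Of 7 pentose phosphate pathway genes 2 were higher and 5 did not pass, a share of higher genes close to the 29.3% over all genes, with a median log2 fold change of 0.14. TAL1 (YALI0F15587g), transaldolase, was at 1557, 1606 and 1509 CPM on glycerol and 1143, 1194 and 1163 CPM on glucose, without overlap (log2 fold change 0.42 ± 0.09; adjusted p = 0.00023, edgeR with Benjamini-Hochberg). The call of RPE1 (YALI0C11880g), ribulose-phosphate epimerase, at 0.26 ± 0.10, was lost with relative log expression scaling (adjusted p = 0.13, edgeR with Benjamini-Hochberg), and its adjusted p lay between 0.0561 and 0.134 without 1 of 4 libraries. ZWF1 (YALI0E22649g), glucose-6-phosphate dehydrogenase at the entry to the pathway, stood at 0.19 ± 0.13 and did not pass.

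Most genes of pyruvate entry and the tricarboxylic acid cycle did not pass. Of 17, 14 did not, 2 were lower and 1 was higher, against 26% and 29.3% of all genes, with a median log2 fold change of -0.07. PYC1 (YALI0C24101g), pyruvate carboxylase, which makes oxaloacetate, stood at 1287, 1570 and 1342 CPM on glycerol and at 2462, 2719 and 2714 CPM on glucose (log2 fold change -0.91 ± 0.18; adjusted p = 6.91e-05, edgeR with Benjamini-Hochberg). LAT1 (YALI0D23683g), of the pyruvate dehydrogenase complex, changed by -0.57 ± 0.12. The rise of SDH2 (YALI0D23397g), a succinate dehydrogenase subunit, by 0.26 ± 0.10 was lost with relative log expression scaling, without the filter, with DESeq2 and with limma. These 4 settings called 5 genes of the list lower in place of 2, adding the pyruvate dehydrogenase genes PDA1 and LPD1 and the citrate synthase gene CIT1.

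The glyoxylate cycle, which lets cells build sugar from fatty acids and acetate by bypassing the decarboxylation steps of the tricarboxylic acid cycle, had 4 lower genes of 5, against 26% of all genes, and a median of -1.30. CIT2 (YALI0E00638g), a citrate synthase, was at 33.9, 32.1 and 28.4 CPM on glycerol and 309, 315 and 296 CPM on glucose, 9.78-fold lower by the fit (log2 fold change -3.29 ± 0.26; adjusted p = 4.29e-11, edgeR with Benjamini-Hochberg). The malate synthase genes MLS2 (YALI0D19140g) and MLS1 (YALI0E15708g) changed by -2.20 ± 0.46 and -0.95 ± 0.17, and the malate dehydrogenase gene MDH2 (YALI0E14190g) by -1.30 ± 0.10. ICL1 (YALI0C16885g), isocitrate lyase, the enzyme that opens the bypass, did not follow. It stood at 416, 468 and 395 CPM on glycerol and 362, 398 and 387 CPM on glucose, with overlapping groups and a log2 fold change of 0.16 ± 0.14 that did not pass (adjusted p = 0.372, edgeR with Benjamini-Hochberg). Of the 2 citrate transport genes, CTP1 (YALI0F26323g), the mitochondrial citrate carrier, rose by 0.69 ± 0.11, with 251, 240 and 253 CPM on glycerol and 146, 157 and 159 CPM on glucose. CEX1 (YALI0D20196g), a citrate exporter of the cell membrane, was low on both carbon sources, at 9.09 to 12.9 CPM and 8.34 to 10.6 CPM, and did not pass.

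**Figure D2:**
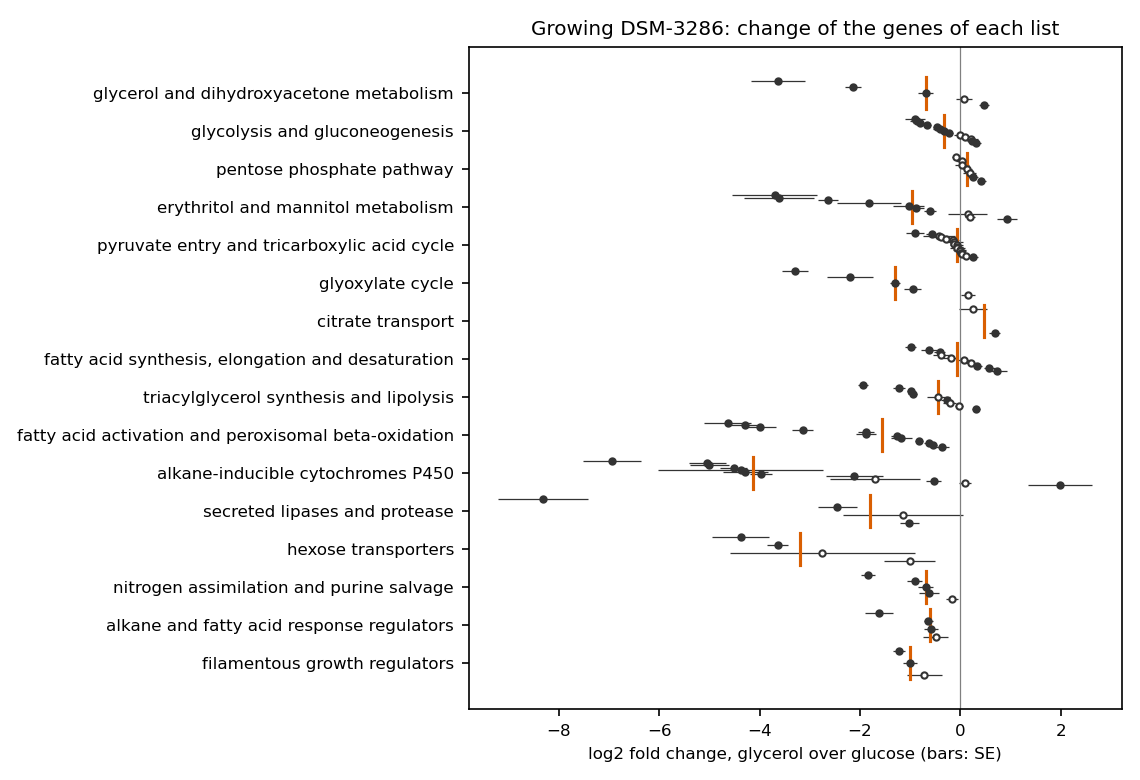
Log2 fold change (glycerol over glucose, growing DSM-3286) of each tested gene of the 16 lists; bars are SE, filled points are called, open points are not, and orange lines are list medians. Members of beta-oxidation, P450, hexose transporter and secreted enzyme lists reach the strongest negative values, while tricarboxylic acid cycle and pentose phosphate genes lie close to 0.

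Every one of the 12 genes of fatty acid activation and peroxisomal beta-oxidation was lower on glycerol, at a background of 26% of genes called lower. The median log2 fold change was -1.57, and 8 of the 12 were at least 2-fold lower, against 10.7% of all genes. The drop was steepest among the acyl-CoA oxidases, the first enzymes of the cycle. POX4 (YALI0E27654g) stood at 2.85, 2.42 and 3.62 CPM on glycerol and 57.6, 59.4 and 63.8 CPM on glucose (log2 fold change -4.29 ± 0.31; adjusted p = 4.39e-12, edgeR with Benjamini-Hochberg). POX5 (YALI0C23859g) stood at 0.509, 0.485 and 0.857 CPM on glycerol, which is 4 to 18 reads a library, and at 17.3, 19.4 and 14.8 CPM on glucose (-4.64 ± 0.46). POX6 (YALI0E06567g) went from 73.4 to 75.7 CPM on glucose to 6.76 to 9.7 CPM on glycerol (-3.14 ± 0.21), and POX1 (YALI0E32835g) changed by -4.00 ± 0.33. No glycerol library reached the level of any glucose library for these 4 genes, and the groups did not overlap in any of the 12. That count was not made over all genes, and the groups also did not overlap in 57 of the 71 genes with a deposited symbol.

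The 2 most abundant oxidase genes per kilobase on glycerol, POX3 (YALI0D24750g) and POX2 (YALI0F10857g), were also lower, by smaller steps. POX3 was at 81.5, 101 and 100 CPM on glycerol and 329, 361 and 348 CPM on glucose (log2 fold change -1.88 ± 0.15), and POX2 changed by -1.18 ± 0.21. The later enzymes followed: MFE1 (YALI0E15378g), the multifunctional enzyme of the middle steps, changed by -1.26 ± 0.13 and POT1 (YALI0E18568g), the peroxisomal thiolase, by -1.88 ± 0.20. Activation and transport genes changed least. The fatty acyl-CoA synthetase gene FAA1 (YALI0D17864g) stood at -0.63 ± 0.09, the peroxisomal transporter genes PXA2 (YALI0D04246g) and PXA1 (YALI0A06655g) at -0.82 ± 0.08 and -0.55 ± 0.09, and the ATP carrier gene ANT1 (YALI0E03058g) at -0.37 ± 0.14. The call of ANT1 was lost without any 1 of 4 libraries (adjusted p between 0.051 and 0.0795, edgeR with Benjamini-Hochberg). The 12 genes took 0.206 to 0.212% of reads on glycerol and 0.387 to 0.398% on glucose.

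Cytochrome P450 genes of the ALK family showed the strongest list median, -4.13, with 9 of 12 genes lower (26% of all genes), 1 higher and 2 not passing, and 8 of the 9 at least 2-fold lower (10.7% of all genes). Without ALK8 (YALI0C12122g), which had no reads on glycerol and 1 to 5 on glucose, the list median came to -3.97, and limma did not call ALK8. Its call was also lost when only the 6 libraries were fitted, without glycerol replicate 3 and without glucose replicate 1 (adjusted p = 0.0539, 0.103 and 0.154, edgeR with Benjamini-Hochberg). ALK3 (YALI0E23474g) was at 1.73, 1.58 and 2.76 CPM on glycerol and 239, 288 and 278 CPM on glucose, 123-fold lower by the fit (log2 fold change -6.94 ± 0.58; adjusted p = 2.53e-10, edgeR with Benjamini-Hochberg). ALK5 (YALI0B13838g), like ALK3 known for hydroxylating fatty acids, was at 8.45, 8 and 7.24 CPM against 123, 125 and 121 CPM (-3.97 ± 0.22), and ALK7 (YALI0A15488g) at 7.43, 6.79 and 8.24 CPM against 151, 137 and 156 CPM (-4.29 ± 0.45). The replicates of each carbon source lay close together and the groups were far apart in all 3.

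ALK1 (YALI0E25982g), the main alkane hydroxylase, was the most abundant of the family per kilobase on both carbon sources, at 204, 162 and 172 CPM on glycerol and 761, 785 and 775 CPM on glucose (log2 fold change -2.11 ± 0.56). ALK9 (YALI0B06248g), ALK11 (YALI0C10054g) and ALK12 (YALI0A20130g) were below 1 CPM on glycerol and at 7.61 to 23.6 CPM on glucose, with log2 fold changes of -5.04 ± 0.36, -5.00 ± 0.39 and -4.52 ± 0.26. ALK6 (YALI0B01848g) changed by -0.53 ± 0.15. ALK2 (YALI0F01320g), also known to hydroxylate alkanes, went the other way, with 63.3, 66.4 and 64.2 CPM on glycerol and 17.3, 17 and 14.3 CPM on glucose (1.99 ± 0.64; adjusted p = 0.0107, edgeR with Benjamini-Hochberg). ALK4 (YALI0B13816g) overlapped between the groups, at 96.4 to 103 and 92.2 to 97.8 CPM, and ALK10 (YALI0B20702g) stayed below 1 CPM in all 6 libraries, and was called lower only when glycerol replicate 3 was left out (adjusted p = 0.0165, edgeR with Benjamini-Hochberg).

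Among regulators of the response to alkanes and fatty acids, 3 of 4 were lower, against 26% of all genes, and the list median was -0.61. YAS1 (YALI0C02387g), a transcription factor of the alkane response, was at 1.63, 1.94 and 2.24 CPM on glycerol and 6.32, 5.27 and 6.7 CPM on glucose (log2 fold change -1.62 ± 0.28; adjusted p = 1.76e-05, edgeR with Benjamini-Hochberg). Its partner YAS2 (YALI0E32417g) changed by -0.64 ± 0.09, and POR1 (YALI0D12628g), a regulator of fatty acid use, by -0.58 ± 0.14. The tag listed as YAS3, which carries the symbol OPI1 in the deposited table (YALI0C14784g), stood at -0.49 ± 0.25 and did not pass. DESeq2 called it lower (Benjamini-Hochberg adjusted p = 0.0437), as did an edgeR fit of only these 6 libraries.

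Of 10 genes of fatty acid synthesis, elongation and desaturation 3 were higher, 3 lower and 4 did not pass, shares close to the 29.3% and 26% over all genes, and the median log2 fold change was -0.06. The elongase genes ELO1 (YALI0F06754g) and ELO2 (YALI0B20196g) rose by 0.73 ± 0.20 and 0.58 ± 0.11. The fatty acid synthase gene FAS1 (YALI0B15059g) changed by -0.63 ± 0.16 and the malic enzyme gene MAE1 (YALI0E18634g) by -0.99 ± 0.11. FAS2 (YALI0B19382g) did not pass, but relative log expression scaling (-0.44), no filter (-0.48), DESeq2 (-0.44) and limma (-0.45) each called it lower. The subunits of ATP citrate lyase, which supplies cytosolic acetyl-CoA, went opposite ways: ACL1 (YALI0E34793g) stood at 1620, 1479 and 1547 CPM on glycerol and 1213, 1223 and 1230 CPM on glucose (0.34 ± 0.09), ACL2 (YALI0D24431g) at 551, 601 and 559 CPM and 729, 764 and 779 CPM (-0.41 ± 0.11). ACL1 was higher and ACL2 lower in every glycerol library than in any glucose library. The groups did not overlap in 9 of the 10 genes, a count that was not made over all genes.

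Of 9 genes of triacylglycerol synthesis and lipolysis 5 were lower (26% of all genes), 1 was higher and 3 did not pass, and the median log2 fold change was -0.44. DGA1 (YALI0E32769g), a diacylglycerol acyltransferase that makes the last step of storage lipid, was at 76.8, 79 and 80.5 CPM on glycerol and 309, 300 and 298 CPM on glucose (log2 fold change -1.94 ± 0.10; adjusted p = 3.87e-15, edgeR with Benjamini-Hochberg). DGA2 (YALI0D07986g), the other acyltransferase of that step, changed by -0.95 ± 0.09, the glycerol-3-phosphate acyltransferase gene SCT1 (YALI0C00209g) by -0.99 ± 0.07, and the intracellular lipase gene TGL3 (YALI0D17534g) by -1.22 ± 0.12. LRO1 (YALI0E16797g), which makes triacylglycerol from phospholipid, was higher by 0.31 ± 0.08. The call of SLC1, the remaining lower gene, at -0.27, was lost without any 1 of 5 libraries (adjusted p between 0.0619 and 0.138, edgeR with Benjamini-Hochberg).

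The secreted lipase genes held the largest change of any listed gene. LIP8 (YALI0B09361g) was at 6.41, 7.03 and 6.62 CPM on glycerol and at 1862, 2249 and 2299 CPM on glucose. The means differed 320-fold by the fit, a log2 fold change of -8.32 ± 0.89 (adjusted p = 1.95e-08, edgeR with Benjamini-Hochberg). Per kilobase, LIP8 ranked 150th of the coding genes on glucose and 5404th on glycerol. LIP2 (YALI0A20350g), the main secreted lipase of this yeast, was at 67.2, 43.8 and 76.1 CPM on glycerol and 358, 346 and 322 CPM on glucose (-2.45 ± 0.39; adjusted p = 8.36e-06, edgeR with Benjamini-Hochberg). AXP1 (YALI0B05654g), a secreted acid protease, changed by -1.02 ± 0.19, and LIP7 (YALI0D19184g) stayed below 1 CPM and did not pass. Of the list of 4, then, 3 were lower, against 26% of all genes.

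Erythritol and mannitol genes were mostly lower on glycerol: 7 of 10 were lower (26% of all genes), 1 was higher and 2 did not pass, and the median log2 fold change was -0.96. EYD1 (YALI0F01650g), erythritol dehydrogenase, the first enzyme of erythritol use, was at 30.1, 14.1 and 9.48 CPM on glycerol and 241, 221 and 223 CPM on glucose (log2 fold change -3.70 ± 0.85; adjusted p = 0.000658, edgeR with Benjamini-Hochberg). Its neighbour by locus tag, YALI0F01628g, an isomerase gene of the same route, was at 9.16, 5.09 and 4.48 CPM and 68.1, 72.9 and 82.4 CPM (-3.61 ± 0.70). The glycerol libraries differed 3-fold among themselves for EYD1 but did not reach the glucose libraries. EYK1 (YALI0F01606g), erythrulose kinase, changed by -1.82 ± 0.63, and its call was lost without glycerol replicate 2, glycerol replicate 3 or glucose replicate 1 (adjusted p = 0.0505, 0.0848 and 0.058, edgeR with Benjamini-Hochberg). EUF1 (YALI0F01562g), the regulator of erythritol use, changed by -0.89 ± 0.16. The mannitol dehydrogenase gene SDR2 (YALI0D18964g) was at 70.7, 139 and 95.6 CPM on glycerol and 634, 649 and 626 CPM on glucose (-2.64 ± 0.20).

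Nitrogen assimilation genes were lower on glycerol in 4 of 5 cases, against 26% of all genes, with a median of -0.69. GDH2 (YALI0E09603g), the glutamate dehydrogenase that releases ammonium from glutamate, stood at 130, 129 and 128 CPM on glycerol and 455, 455 and 473 CPM on glucose (log2 fold change -1.84 ± 0.13; adjusted p = 3.16e-12, edgeR with Benjamini-Hochberg). The ammonium-assimilating genes GLT1 (YALI0B19998g, glutamate synthase), GDH1 (YALI0F17820g, the biosynthetic glutamate dehydrogenase) and GLN1 (YALI0F00506g, glutamine synthetase) changed by -0.91 ± 0.15, -0.69 ± 0.15 and -0.63 ± 0.20. AMPD1 (YALI0E11495g), AMP deaminase, stood at -0.16 ± 0.12 and did not pass.

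Among the 71 genes with a symbol in the deposited table, 12 were higher on glycerol (29.3% of all genes), 28 were lower (26% of all genes) and 31 did not pass, and the median log2 fold change was -0.22. The submitters chose these symbols, so the counts are no independent evidence of a direction. At the upper end stood homologs of Saccharomyces cerevisiae factors that mature large ribosomal subunits and of the transcription factor for 5S rRNA genes. TFC2 (YALI0F05104g), which shares its name with the S. cerevisiae gene for that transcription factor, TFIIIA, was at 83.7, 67.4 and 75.9 CPM on glycerol and 24.2, 22.6 and 25.7 CPM on glucose (log2 fold change 1.65 ± 0.18; adjusted p = 1.24e-08, edgeR with Benjamini-Hochberg). BUD20 (YALI0D13068g), a pre-60S export factor in S. cerevisiae, was at 97.6, 87 and 103 CPM and 41, 37.4 and 38.6 CPM (1.30 ± 0.12). REI1 (YALI0B08734g) and JJJ1 (YALI0B15312g), which act together in late cytoplasmic 60S maturation in S. cerevisiae, rose by 1.18 ± 0.13 and 1.05 ± 0.13, and STP3 (YALI0B05478g) by 1.62 ± 0.22. In these 5 genes the lowest glycerol library lay above the highest glucose library. This does not set them apart, since the groups did not overlap in 57 of the 71 genes.

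At the lower end stood RME1 (YALI0E17215g), a regulator of meiosis in S. cerevisiae, which was at 0.407 to 0.619 CPM on glycerol and 3.98 to 4.83 CPM on glucose (log2 fold change -3.00 ± 0.73). The gene with the symbol MGF1-like (YALI0B19602g) changed by -1.81 ± 0.53. USV1 (YALI0B22176g), a regulator of growth on non-fermentable carbon in S. cerevisiae, was at 24.2, 34.1 and 26.9 CPM and 70.1, 78.7 and 72 CPM (-1.38 ± 0.12). CHA4 (YALI0C15202g), an activator of serine and threonine breakdown in S. cerevisiae, changed by -1.34 ± 0.17. MSN4 (YALI0C13750g), a stress response factor in S. cerevisiae, changed by -1.06 ± 0.19 and the repressor gene NRG1 (YALI0C12364g) by -1.12 ± 0.30.

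Among genes listed as regulators of filamentous growth, 2 of 3 were lower, against 26% of all genes. RIM101 (YALI0B13640g), a transcription factor of the response to ambient pH, was at 117, 134 and 127 CPM on glycerol and 276, 306 and 305 CPM on glucose (log2 fold change -1.23 ± 0.12; adjusted p = 1.48e-09, edgeR with Benjamini-Hochberg). The labels give pH 5.5 for both carbon sources, and the cause of this change was not tested. HOY1 (YALI0A18469g), a homeobox gene needed for hyphae, changed by -1.01 ± 0.14. MHY1 (YALI0B21582g), a zinc finger activator of the switch to hyphae, stood at 636, 713 and 677 CPM against 1071, 1081 and 1189 CPM. Its groups did not overlap, but the log2 fold change of -0.72 ± 0.35 did not pass in edgeR (Benjamini-Hochberg adjusted p = 0.0815), while DESeq2 called it (Benjamini-Hochberg adjusted p = 0.0461), as did an edgeR fit of only these 6 libraries.

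**Figure D3:**
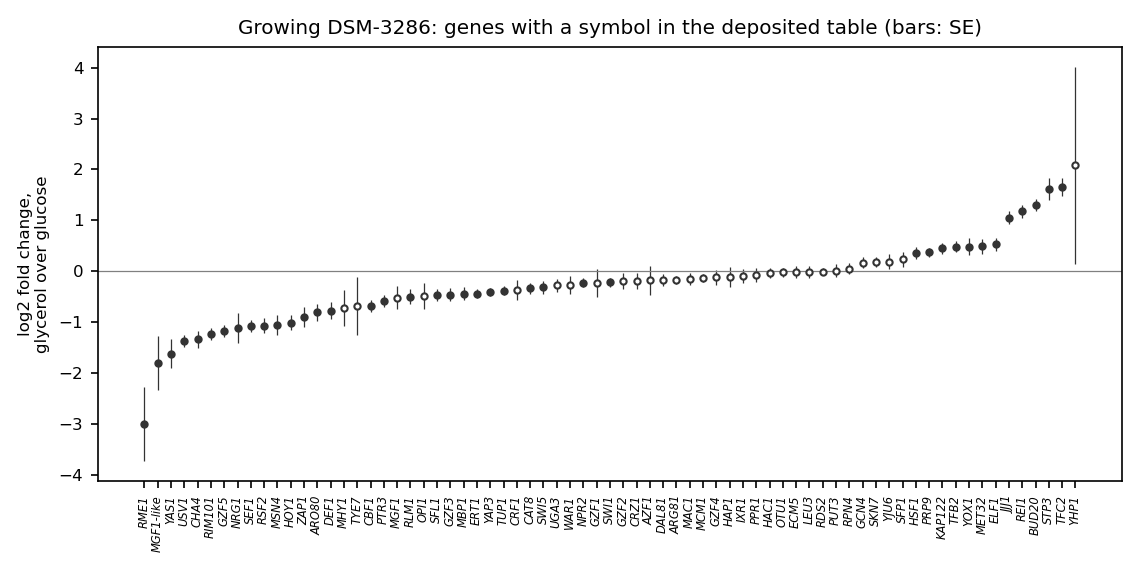
Log2 fold change (glycerol over glucose, growing DSM-3286) of the 71 genes with a symbol in the deposited table, from lowest to highest; bars are SE, filled points are called and open points are not. RME1 is at -3.00, and JJJ1, REI1, BUD20, STP3 and TFC2 stand apart at 1.05 to 1.65; YHP1, at the right, was below 1 CPM and did not pass.

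Genes with noncoding locus tags were seldom called lower on glycerol: of 227 tested 6 were lower, against 26% of all genes. Those called higher were 74, a share close to the 29.3% over all genes. The median log2 fold change was 1.33 against 0.005 for all genes. Among tRNA genes 59 of 164 were higher and 3 lower, with a median of 1.68, and their share of reads was 0.0185 to 0.0206% on glycerol and 0.00651 to 0.00823% on glucose. Among rRNA genes 7 of 41 were higher, a smaller share than the 29.3% over all genes. Libraries were made from poly(A) RNA, so tRNA and rRNA reads are residues of RNAs that the selection leaves out. Their shares do not measure the amounts in the cell. A further 40 noncoding tags had no class. They took a larger share of reads, 0.064 to 0.0747% on glycerol and 0.0332 to 0.0408% on glucose, and whether their RNAs carry poly(A) was not tested.

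Some of the largest changes were in genes to which the files give no name. YALI0D26466g stood at 8093, 9051 and 8451 CPM on glycerol and at 47.5, 55.7 and 50.7 CPM on glucose (log2 fold change 7.38 ± 0.63; adjusted p = 4.42e-10, edgeR with Benjamini-Hochberg), and per kilobase it ranked 10th of all coding genes on glycerol. YALI0B21472g was at 51.5, 47.5 and 95.3 CPM on glycerol and at most 1 CPM on glucose (6.53 ± 0.43). In the other direction, YALI0B19492g was at 1.22, 1.21 and 0.191 CPM on glycerol and 629, 646 and 625 CPM on glucose (-9.80 ± 0.54). YALI0C15488g had 2, 2 and 0 reads on glycerol and 4589, 3939 and 4720 reads on glucose. It is 1 of 4 genes with at most 3 reads in each glycerol library and at least 10 CPM on glucose, and no gene showed the reverse.

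DSM-21175 grown the same way gave a similar set of calls with smaller changes in many listed genes. In that strain 3049 genes (46.6%) were called, 1599 higher (24.5%) and 1450 lower (22.2%). Of the genes higher on glycerol, 1323 were called higher in both strains, which is 69.1% of those of DSM-3286 and 82.7% of those of DSM-21175. Of the lower genes 1018 were shared, 59.8% and 70.2%. Only 17 genes higher and 38 lower in DSM-3286 were called in the opposite direction in DSM-21175. The difference between the strains was tested as an interaction and was called for 642 genes (9.82%), 239 of them with a higher (3.66%) and 403 with a lower (6.16%) value in DSM-3286. The counts of 239 and 403 became 360 and 514 without DSM-21175 glycerol replicate 2, and 197 and 392 without its glucose replicate 3. With all libraries, 90 genes (1.38%) with a higher and 213 (3.26%) with a lower value differed by at least 2-fold.

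Several catabolic genes were lower on glycerol by more in DSM-3286 than in DSM-21175. Of the 12 beta-oxidation genes 6 differed between the strains and all 6 had the more negative value in DSM-3286, at a background of 6.16%, and the number was 7 without DSM-21175 glucose replicate 3 and 5 without glycerol replicate 2. POX5 changed by -4.64 in DSM-3286 and -2.20 in DSM-21175, and POX1 by -4.00 and -1.82. The difference was -2.43 for POX5, -2.85 without glucose replicate 3 and -2.79 without glycerol replicate 2, and for POX1 it was -2.18, -2.29 and -2.10. POX4 changed by -4.29 and -3.58, and that difference did not pass (adjusted p = 0.329, edgeR with Benjamini-Hochberg). Of the P450 genes 5 of 12 differed in the same direction, against 6.16% of all genes, under each of the 3 sets of libraries.

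ALK7 was the clearest of these. In DSM-21175 it was at 7.26, 10 and 11.8 CPM on glycerol and 9.76, 8.04 and 9.67 CPM on glucose, so among growing cells the glucose libraries of DSM-3286 alone were high. The difference in log2 fold change was -4.37 ± 0.61 (adjusted p = 2.06e-05, edgeR with Benjamini-Hochberg) and it was -4.41 without DSM-21175 glucose replicate 3 and -4.34 without glycerol replicate 2. ALK3 and ALK12 differed by -3.25 and -3.05, by -3.23 and -3.04 without the first of these libraries, and by -3.47 and -2.98 without the other. ALK5 stood at -3.97 and -3.72 in the 2 strains and did not differ by the test (adjusted p = 0.677, edgeR with Benjamini-Hochberg).

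Hexose transporter genes also differed between the strains. YHT1 in DSM-21175 was at 992, 1065 and 1133 CPM on glycerol and 1942, 2201 and 2324 CPM on glucose, so that its glycerol libraries lay above all glycerol libraries of DSM-3286. The difference in log2 fold change was -3.36 (adjusted p = 0.00199, edgeR with Benjamini-Hochberg), and for YHT4 it was -2.35 (adjusted p = 7.89e-07, edgeR with Benjamini-Hochberg). Without glucose replicate 3 these differences were -3.42 and -2.45, and without glycerol replicate 2 they were -3.36 and -2.49. GUT1 in DSM-21175 was at 655, 434 and 739 CPM on glycerol and 988, 966 and 1181 CPM on glucose, a log2 fold change of -0.78. It differed from DSM-3286 by -1.35 (adjusted p = 6.2e-05, edgeR with Benjamini-Hochberg), by -1.45 without DSM-21175 glucose replicate 3 and by -1.55 without glycerol replicate 2.

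GDH2 was not called in DSM-21175 at all, at 219, 173 and 228 CPM on glycerol and 173, 185 and 236 CPM on glucose, and differed by -1.90 (adjusted p = 2.49e-08, edgeR with Benjamini-Hochberg), by -2.04 without glucose replicate 3 and by -2.01 without glycerol replicate 2. LIP2 differed by -2.96 (adjusted p = 0.000475, edgeR with Benjamini-Hochberg) by -3.29 without glycerol replicate 2, and by -2.50 without glucose replicate 3, in which LIP2 was at 18.3 CPM against 95.2 and 94.5 CPM in the other two. LIP8 in that library was at 11.7 CPM against 1067 and 850 CPM. The strain difference of LIP8 did not pass with all libraries (-2.79; adjusted p = 0.0789, edgeR with Benjamini-Hochberg) and passed without that one (-2.21; adjusted p = 1.51e-05, edgeR with Benjamini-Hochberg), and it was -2.87 without glycerol replicate 2 and did not pass. Among the symbols of the deposited table, ARO80 (YALI0C18645g), an activator of aromatic amino acid breakdown in S. cerevisiae, fell by 0.81 in DSM-3286 and rose by 0.71 in DSM-21175, a difference of -1.52 (adjusted p = 2.75e-05, edgeR with Benjamini-Hochberg) that was -1.48 and -1.62 without each of the same libraries in turn. TAL1 was the only gene of the 16 lists with a significantly more positive value in DSM-3286, by 0.49 (adjusted p = 0.0109, edgeR with Benjamini-Hochberg), when all libraries were used, and its difference was 0.55 and 0.51 without each of them. YALI0D26466g stayed at or below 9.85 CPM in all 6 growing DSM-21175 libraries, on either carbon source.

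**Figure D4:**
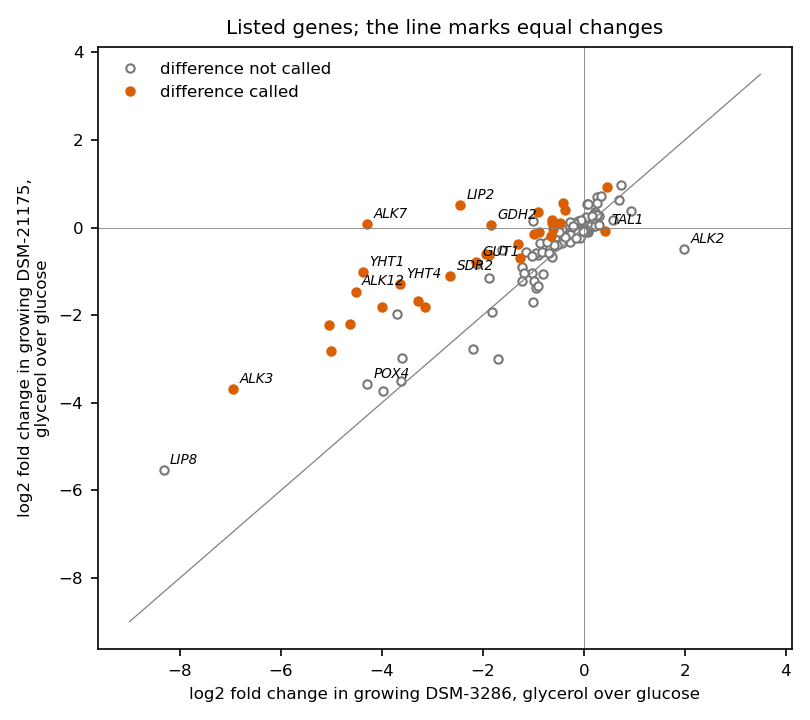
Log2 fold change (glycerol over glucose) of the listed genes in growing DSM-3286 (x axis) and growing DSM-21175 (y axis), without ALK8 and YHT2; orange points differ between the strains by the interaction test and the line marks equal changes. ALK7, YHT1, YHT4, LIP2 and GDH2 lie far above the line, and POX4 is close to it.

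In stationary phase the same strain showed a different response to the carbon source. At 32 h and pH 5.5 there were 2339 genes called between glycerol and glucose (35.8%), 1231 higher (18.8%) and 1108 lower (16.9%). Of the genes higher on glycerol in growing cells 508 were also higher at 32 h, which is 26.5% of the growth calls and 41.3% of the 32 h calls, and 195 were lower. Of the lower genes 503 were shared (29.6% and 45.4%), and 216 were higher at 32 h. The difference between the phases was called for 2921 genes (44.7%), 1514 with a higher (23.2%) and 1407 with a lower (21.5%) value in growing cells. Of these, 382 (5.84%) and 818 (12.5%) differed by at least 2-fold. At 32 h both carbon sources were sampled at the same hour, so the hour goes with the carbon source only in growth phase.

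The hexose transporter genes YHT1 and YHT4 and the citrate synthase gene CIT2 were lower on glycerol at 32 h too. YHT1 was at 78.5, 58.1 and 76.8 CPM on glycerol and 1396 and 1222 CPM on glucose, a log2 fold change of -4.20 against -4.38 in growing cells. YHT4 changed by -3.38 and CIT2 by -3.76. The difference between the phases did not pass for these 3 genes (adjusted p = 0.869, 0.517 and 0.313, edgeR with Benjamini-Hochberg). The other 4 genes of the glyoxylate cycle varied. MLS2 and MLS1 were not called at 32 h (0.13 and -0.40), MDH2 was lower by less (-0.93), and ICL1 was lower only at 32 h (-0.65), with phase differences called for MLS2 (-2.33), ICL1 (0.81) and MDH2 (-0.36). Beta-oxidation genes were lower on glycerol in 10 of 12 cases at 32 h, against 16.9% of all genes, with a median of -1.13. In 6 of the 12 the value was lower in growing cells by the difference test, against 21.5% of all genes.

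Polyol, lipase and P450 genes differed most between the phases. EYD1 was at 421, 376 and 373 CPM on glycerol and 299 and 298 CPM on glucose at 32 h, with a log2 fold change of 0.39 that did not pass, and the phases differed by -4.09 (adjusted p = 0.0081, edgeR with Benjamini-Hochberg). EYK1 was called higher on glycerol at 32 h (1.77; adjusted p = 0.04, edgeR with Benjamini-Hochberg), with 131, 100 and 99.5 CPM against 33.6 and 31.1 CPM. LIP8 was low on both at 32 h, at 13.8 to 18.5 CPM and 32.6 to 47.3 CPM, and the phases differed by -7.06 (adjusted p = 2.51e-05, edgeR with Benjamini-Hochberg). ALK7 at 32 h reached 9641, 8966 and 8884 CPM on glycerol and 5061 and 4237 CPM on glucose, up from single digits on glycerol during growth, and the log2 fold change of 0.98 did not pass. TGL3 was lower on glycerol in growing cells and higher at 32 h (1.11; adjusted p = 1.66e-07, edgeR with Benjamini-Hochberg), with 226, 216 and 214 CPM against 114 and 88.8 CPM.

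Glycolysis genes moved in both directions between the phases. Of the 13 glycolysis and gluconeogenesis genes 10 were lower on glycerol at 32 h (16.9% of all genes) and 3 did not pass. By the difference test 6 had a higher value in growing cells, against 23.2% of all genes. A lower value was called in 2, against 21.5% of all genes (HXK1, -0.84, and TDH1, -0.42), and 5 did not pass. Of the 17 genes of pyruvate entry and the tricarboxylic acid cycle 4 had a higher value, a share close to the 23.2% over all genes. In 1 the value was lower (PYC1, -0.86), against 21.5% of all genes, and 12 did not pass. GLK1 was at 542, 560 and 534 CPM on glycerol and 1125 and 1140 CPM on glucose at 32 h (-1.05), and the phases differed by 1.28 (adjusted p = 5e-08, edgeR with Benjamini-Hochberg). TFC2 and REI1, which rose in growing cells, stood at -0.06 and 0.10 at 32 h, and their phase differences of 1.71 and 1.08 passed (adjusted p = 1.17e-05 and 2.88e-05, edgeR with Benjamini-Hochberg). Noncoding RNAs took 0.0637 ± 0.00284% of reads on glucose (n = 2) and 0.187 ± 0.0253% on glycerol (n = 3; SD) at 32 h.

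**Figure D5:**
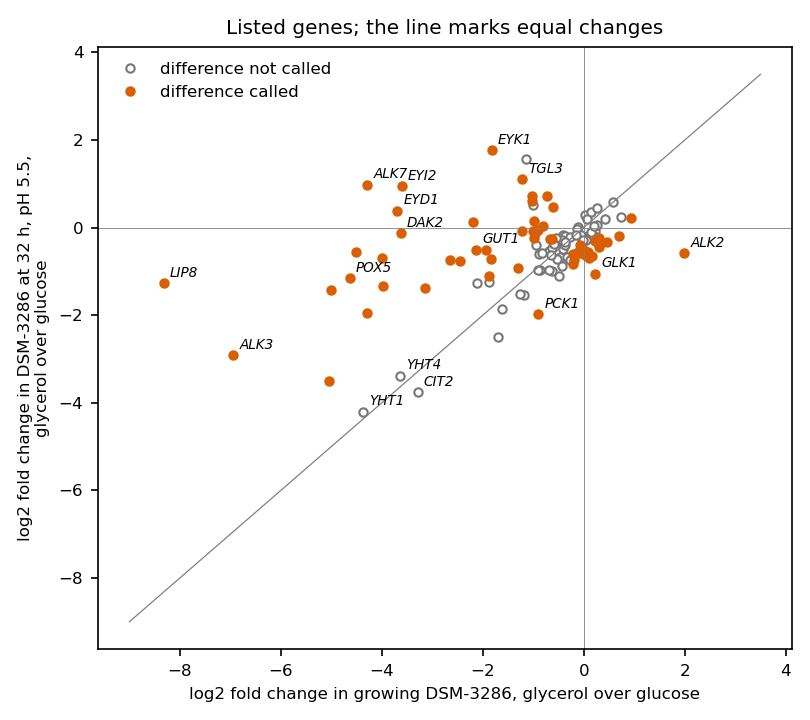
Log2 fold change (glycerol over glucose) of the listed genes in growing DSM-3286 (x axis) and in DSM-3286 at 32 h and pH 5.5 (y axis), without ALK8 and YHT2; orange points differ between the phases by the difference test and the line marks equal changes. YHT1, YHT4 and CIT2 lie near the line, and LIP8, ALK7, EYD1, EYI2 (here YALI0F01628g, a name that was not checked) and DAK2 are far above it.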

How the data were processed

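The authors deposited a table of whole-number read counts per gene and a second table of log2 values, which lay within 0.02 of log2(FPKM + 1) recomputed from the counts for 99.9% of values. BWA 0.7.12-r1039, featureCounts 1.5.1 and edgeR are named in the submitters' processing notes, with no role. Per the labels' protocols, poly(A) RNA was selected and libraries kept the strand. No source used here gives the genome build or whether counting used the strand. Reads of near-identical genes (families such as ALK, POX and YHT) and of overlapping or antisense genes may therefore have been split or shared, and such genes are uncertain. All 35 columns were assigned to samples by name, and groups and replicate numbers come from the labels.

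Counts of 7132 genes were analysed with edgeR 4.0.16 in R 4.3.3. The filter filterByExpr kept 6537 genes, TMM (trimmed mean of M values) scaled the libraries, and 1 coefficient per group was fitted with robust quasi-likelihood dispersions. All 35 libraries entered the fit, leaving 23 residual degrees of freedom, and the common biological coefficient of variation was 14.85%. The differences between strains and between phases are contrasts within it. Benjamini-Hochberg adjustment ran over all genes tested, and a gene was called under 0.05. CPM use the TMM-adjusted library total. An SE is the absolute log2 fold change divided by the square root of F. Procedures were tested on simulated data. Levels of different genes were compared per kilobase of effective length, with ranks over coding genes. Replicate numbers were not taken as pairs, since deviations of same-numbered glycerol and glucose libraries correlated at -0.0224, 0.0478 and 0.00698.

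The comparison and the 16 gene lists (122 genes) were chosen with earlier results of these data known. The rule for naming genes took up to 4 called genes per list by size of change, all members of short lists (5 or fewer) that missed the threshold, up to 5 higher and 5 lower genes with a symbol in the files, up to 2 each without one, up to 4 of each sign per difference, and 6 fixed genes. Others were named after their values were seen. Of the 71 symbols, which replace IDs in the log2 table, each was paired with 1 ID by its values (largest mean difference 0.0031, next best at least 0.189). The reference gene table (assembly ASM176148v1) matched 6682 IDs and was used for tRNA and rRNA classes alone. Alternatives were RLE (relative log expression) scaling, no filter, DESeq2 1.42.0, limma 3.58.1 with the deposited log2 values, restricting the fit to the libraries of a comparison, a replicate block, a 2-fold minimum, and omitting single libraries. Figures were drawn with Python 3.11.15 and matplotlib 3.10.9.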

Additional observations from a re-analysis of the deposited data

Results flagged for a closer look

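The following listed genes changed differently with carbon source in the 2 strains or in the 2 phases, by the test of the difference itself (edgeR, Benjamini-Hochberg adjusted p under 0.05). Between growing DSM-3286 and growing DSM-21175 the log2 fold change differed by -4.37 for ALK7, -3.36 for YHT1, -3.25 for ALK3, -3.05 for ALK12 and 0.49 for TAL1. ALK7, YHT1 and TAL1 were called in growing DSM-3286 and not in growing DSM-21175, and ALK3 and ALK12 were called lower on glycerol in both.

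Between growing DSM-3286 and DSM-3286 at 32 h the log2 fold change differed by -7.06 for LIP8, -5.27 for ALK7, -4.55 for YALI0F01628g and -4.09 for EYD1, which were lower on glycerol during growth and not called at 32 h. It differed by 2.57 for ALK2, 1.28 for GLK1, 1.07 for PCK1 and 0.88 for CTP1. ALK2 and CTP1 were called higher on glycerol during growth and not called at 32 h, and PCK1 was lower in both, by 0.90 and 1.97 on the log2 scale. GLK1 was called lower at 32 h and higher by 0.23 during growth. The growth call of GLK1 was lost with RLE scaling, without the filter, with DESeq2 and with limma. It was also lost without growing glycerol replicate 1 or 3 or any single growing glucose library (adjusted p between 0.0724 and 0.14, edgeR with Benjamini-Hochberg). The phase difference of ALK2 was lost with DESeq2 (Benjamini-Hochberg adjusted p = 0.0547) and without growing glucose replicate 3 or either 32 h glucose library (edgeR, Benjamini-Hochberg adjusted p = 0.0518, 0.0661 and 0.0506).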

How the results depend on the processing

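In the main comparison none of 135 listed or named genes changed direction under the alternatives run where either value was called. Sign changes where neither value passed were not counted there. Among strain differences that were not called, signs did change, in more genes than the examples given here. Without DSM-21175 glucose replicate 3 ALK2 went from 2.48 to -0.83 and SDR1 from 0.13 to -0.38. Without glycerol replicate 2 ALK8 went from -1.29 to 0.93 and LIP7 from -0.58 to 1.65. A 2-fold threshold left 1147 genes (448 higher, 699 lower) for growing DSM-3286, 303 (90 and 213) for the strain difference and 1200 (382 and 818) for the phase difference. Leaving out each library in turn gave 3197 to 3393 calls for growing DSM-3286 (1686 to 1835 higher, 1511 to 1573 lower), 474 to 874 for the strain difference (161 to 360 higher, 313 to 514 lower) and 2446 to 2811 for the phase difference (1184 to 1485 higher, 1254 to 1416 lower). The count of 360 was without the second DSM-21175 glycerol library. With the replicate number as a block, 3608 genes were called for growing DSM-3286, and all 135 genes followed kept their side of the threshold. With that block and only the libraries of the comparison fitted, the genes higher in the strain difference were 142. Of the strain difference calls 37.2% were higher, and 25.5% without the filter. Of the phase difference calls 51.8% were higher, and 41.7% without the filter. Levels of a few reads, as for ALK8, ALK10, YHT2, YHT3 and LIP7 on either carbon source, limit what depth can show, and 11 of 135 genes at most changed their side of the threshold under RLE scaling, no filter, DESeq2 or limma. When only the 6 libraries were fitted, 4493 genes were called, and of the 135 genes 16 gained and 1 lost its call.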
